A study of Mus musculus with 5 samples.

Results

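NKX2-1 binding was examined around 7 genes of ion transport in the alveolar epithelium, of 21627 protein-coding genes on the autosomes and chromosome X. Scnn1a, Scnn1b, Scnn1g and Atp1b1 belong to sodium uptake, and Cftr, Slc26a9 and Ano1 to chloride transport. The genes were chosen by role with earlier results of these data known, and their regions were selected on the deposited peak calls and summit positions, so the values below describe these genes and are not tests. A peak was taken where its summit lay inside a gene or within 20 kb of its ends, by RefSeq positions on GRCm38.p6 (mm10). Peaks that shared 1 bp or more formed a region, to which the antibodies with a peak were assigned. This yielded 287 peaks in 88 regions, of 68919 regions in the genome.

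The tissue was whole lung of wild-type mice at postnatal day 10, fixed with formalin. Chromatin immunoprecipitation followed by sequencing (ChIP-seq) used 4 antibodies against NKX2-1 (Abcam133737, Millipore07-601, Abcam76013 and Abcam133638), with 1 library each beside 1 input library. The labels give neither strain nor number of animals, and the protocol pools the sonicated chromatin, so the libraries may come from a shared preparation and cannot be taken as separate animals. Filtered depth was 43031331 to 46547989 tags in the antibody libraries and 10653749 in the input. With 1 library per antibody there is no replicate error and no p-value, and the spread over the 4 antibodies is given in its place. Whole lung mixes cell types, and peak lists do not measure expression, so which cells carried the binding cannot be told. Of 13 lung epithelial loci (markers of alveolar type 1, alveolar type 2 and secretory cells, and Nkx2-1), all 13 had a region of all 4 antibodies within 20 kb, as did 64.8% of all genes.

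NKX2-1 is a homeodomain transcription factor that the lung epithelium needs to form and to keep its identity. Alveolar epithelial cells move salt so that water follows. Sodium enters through the epithelial sodium channel (ENaC), built from alpha, beta and gamma subunits encoded by Scnn1a, Scnn1b and Scnn1g, and leaves on the other side of the cell through the sodium pump, whose beta-1 subunit, encoded by Atp1b1, is needed for the pump to mature and reach the membrane. This absorption clears fluid from the lung at birth and keeps the airspaces nearly dry. Chloride passes through CFTR, a channel opened by cyclic AMP signalling that is defective in cystic fibrosis, through ANO1, a calcium-activated channel, and through SLC26A9, a chloride transporter of epithelia.

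Start sites of these genes differed in how strongly they were bound. Promoter windows in RefSeq (GRCm38.p6) were found for 6 of the 7 genes and not for Scnn1a. A region of all 4 antibodies overlapped the window of Scnn1g, Scnn1b, Atp1b1 and Slc26a9, and not that of Cftr or Ano1. Over all genes with such a window of 300 bases, the share was 31.6%. The 250 bases before the start are shown, 5′ to 3′, for the neighbours Scnn1g and Scnn1b and for Slc26a9. They contrast the best-bound start of these 6 genes with weakly bound starts of genes that carried their strongest region further inside. Capitals mark the word CACTTG, the reverse complement of CAAGTG, a core of NKX2-1 motifs.
Scnn1g (chr7:121734229-121734478, plus strand): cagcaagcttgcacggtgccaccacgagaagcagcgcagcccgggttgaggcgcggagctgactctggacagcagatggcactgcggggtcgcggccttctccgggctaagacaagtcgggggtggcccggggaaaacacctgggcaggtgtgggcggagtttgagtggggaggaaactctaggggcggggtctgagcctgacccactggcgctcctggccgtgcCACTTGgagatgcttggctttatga
Scnn1b (chr7:121864788-121865037, plus strand): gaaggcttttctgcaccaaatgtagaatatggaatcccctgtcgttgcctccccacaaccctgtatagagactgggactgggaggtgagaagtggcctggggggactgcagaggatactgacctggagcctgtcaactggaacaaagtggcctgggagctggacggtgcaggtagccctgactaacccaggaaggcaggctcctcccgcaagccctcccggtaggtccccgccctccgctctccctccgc
Slc26a9 (chr1:131743772-131744021, plus strand): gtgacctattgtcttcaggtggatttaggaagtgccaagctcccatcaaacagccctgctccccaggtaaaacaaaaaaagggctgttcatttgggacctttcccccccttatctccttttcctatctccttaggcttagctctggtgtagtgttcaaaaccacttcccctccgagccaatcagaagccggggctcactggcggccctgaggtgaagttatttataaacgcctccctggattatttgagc
Both strands were searched for CAAGTG and for CTTGAG, words whose matches can share up to 4 letters. The only match in the 6 windows was the capitalised word of Scnn1g, which begins 25 bases before the start (121734454 to 121734459). CAAGTG occurred in 11.2% of all 21044 promoter windows and CTTGAG in 13.1%, so a single match among 6 windows is near what windows of this length hold. A match is a description and not a site.

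The region at the start of Scnn1g (chromosome 7, 121734083 to 121734936) had a fold enrichment of 12.6 with Abcam133737, 17.6 with Millipore07-601, 10.1 with Abcam76013 and 16.0 with Abcam133638. The fold is the authors' value, the pileup of tags at the summit over a local background. The mean of 14.0 placed this region above 87.6% of the 31606 regions of all 4 antibodies in the genome, and the highest peaks of the 4 lists had their summits within 49 bp of each other. At the start of Scnn1b (121864935 to 121865185) the folds were 3.91, 4.23, 3.65 and 5.39 in the same order. At the start of Slc26a9 (chromosome 1, 131743881 to 131744265) they were 4.53, 5.08, 3.65 and 5.39. All 4 libraries were higher at the Scnn1g start than any library at the other starts named here. The region over the start of Atp1b1 (164457917 to 164459148) had a mean fold of 7.45, and its strongest summits lay 0.495 kb before the start. Beside the start of Cftr, a region of 3 antibodies without Abcam76013 lay 1.08 kb inside the gene (18171678 to 18171958, mean fold 4.86), and Millipore07-601 alone gave a peak 1.12 kb before it (fold 4.23).

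All 7 genes had at least 1 region of all 4 antibodies within 20 kb. Among all protein-coding genes 64.8% had one. Regions of all 4 antibodies numbered 12 near Scnn1a, 6 near Scnn1b, 5 near Scnn1g, 8 near Atp1b1, 2 near Cftr, 8 near Slc26a9 and 9 near Ano1. At least 5 were found near 6 of the 7 genes, against 12.6% of all genes, and Cftr was the exception. The median over all genes was 1. All 7 also had such a region inside the gene itself, against 36.2% of all genes. These shares take no account of length. The 7 genes were 21.3 to 163.5 kb long, and the median of all genes was 17.3 kb. Inside the 7 genes there were 6.84 regions of all 4 antibodies per 100 kb, against 1.80 pooled over all genes. Fewer regions of all 4 antibodies than near Scnn1a were found near 99.0% of all genes. Scnn1a was also the member with the highest share of its regions called with all 4 antibodies (85.7%), and Cftr the one with the lowest (28.6%).

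**Figure D1:**
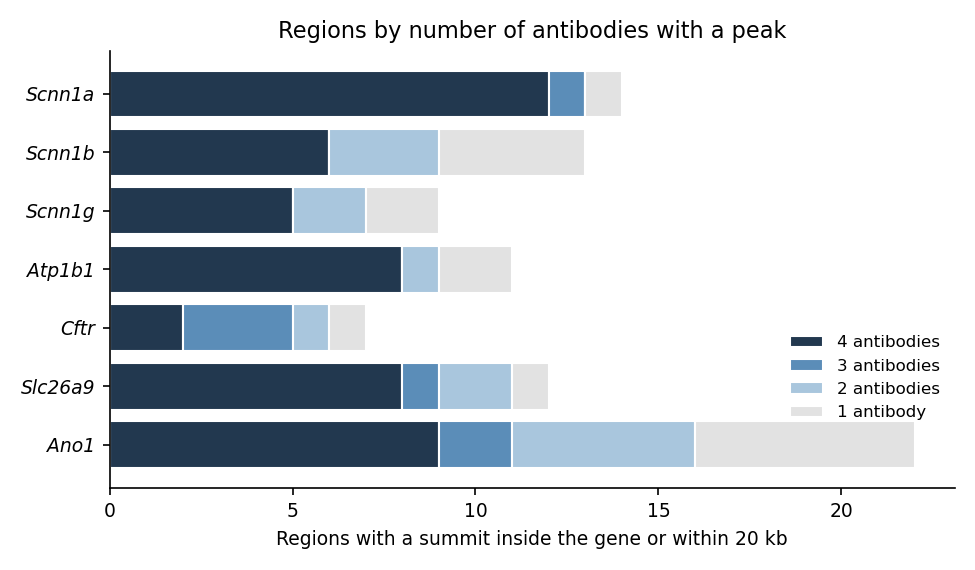
Number of merged regions with a summit inside each gene or within 20 kb (horizontal axis), split by how many of the 4 antibodies gave a peak. Scnn1a has 12 of 14 regions called with all 4 antibodies, Cftr 2 of 7 and Ano1 9 of 22.

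Sodium uptake and chloride transport genes differed in the number of regions for their length. The windows of the 4 sodium uptake genes, 299.7 kb in all, held 31 regions of all 4 antibodies, or 10.3 per 100 kb. The windows of the 3 chloride transport genes, 463.0 kb in all, held 19, or 4.10 per 100 kb. Pooled over all genes, the value was 2.27. By gene it was 16.98 for Scnn1a, 13.1 for Atp1b1, 11.9 for Slc26a9, 6.75 for Scnn1g, 6.40 for Scnn1b, 4.42 for Ano1 and 1.04 for Cftr. The groups thus overlap, since Slc26a9 (27.5 kb) lay among the sodium uptake genes, while the long genes Cftr (152.1 kb) and Ano1 (163.5 kb) lay below them. Without Cftr the chloride transport genes reached 6.27 per 100 kb, and the ratio of sodium uptake to chloride transport genes fell from 2.52 to 1.65. With the 10000 strongest peaks of each list the densities were 2.34 and 1.51, a ratio of 1.55.

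Of the regions near sodium uptake genes, 31 of 47 (66.0%, exact Clopper-Pearson interval at 95% of 50.7 to 79.1, counting error only) were called with all 4 antibodies, and of those near chloride transport genes 19 of 41 (46.3%, 30.7 to 62.6). Across the genome the share was 45.9%. The intervals overlap, and regions of a gene share their source, so this is a description.

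The strength of the best region gave no stable order of the groups. Its mean fold over the 4 libraries was at least 16.0 for each chloride transport gene, whereas the sodium uptake genes other than Scnn1b lay at 10.2 to 14.8. The median was 19.9 for the chloride transport genes and 14.4 for the sodium uptake genes, against 9.65 over all genes with such a region. The difference between these medians, 5.52, turned under other measures. Over the genome-wide background in place of the local one, the medians were 19.9 for chloride transport and 20.7 for sodium uptake genes (difference -0.78). By pileup per 1000000 filtered tags they were 2.09 and 2.18. With summits up to 50 kb away the difference was -0.77, because Atp1b1 then gained a region of mean fold 26.6 inside its neighbour Nme7. With the local background and 20 kb, the difference was 3.55 without Slc26a9, 19.1 without Ano1 and 21.1 without Cftr.

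**Figure D2:**
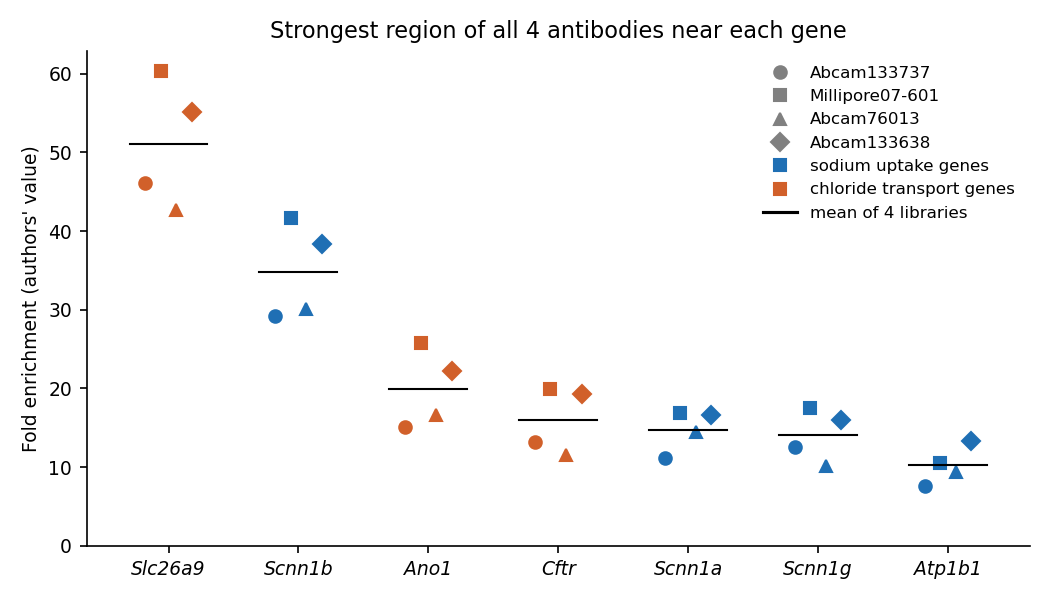
Fold enrichment (vertical axis, the authors' values) of the strongest region of all 4 antibodies near each gene, with 1 symbol per antibody library and a line at their mean. Slc26a9 lies at 42.6 to 60.3, Scnn1b at 29.2 to 41.7, and the remaining 5 genes between 7.64 and 25.8, where neighbours in the order have overlapping ranges.

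The strongest region near Slc26a9 lay inside the gene, 20.8 kb from its start (chromosome 1, 131763872 to 131765115). Its fold was 46.1 with Abcam133737, 60.3 with Millipore07-601, 42.6 with Abcam76013 and 55.2 with Abcam133638. Its mean fold was the highest of all 31606 regions of all 4 antibodies, and the pileup at its summits, 223, 284, 209 and 255 tags, stood at 5.40 per 1000000 filtered tags on average. The next region of Slc26a9 reached a mean fold of 11.7, so that the gene combined a single tall region with lower ones. Of its 8 regions of all 4 antibodies, 7 had their summits inside the gene and the other lay at the start. At 131761151 to 131761774, 3.34 kb before the tall region, the mean fold was 11.2, and directly after it, at 131765412 to 131765916, it was 5.14.

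Scnn1b, the beta subunit gene, also carried a single tall region within its window. Its strongest region lay 15.4 kb inside the gene (chromosome 7, 121880252 to 121881088), with folds of 29.2, 41.7, 30.0 and 38.4 in the order Abcam133737, Millipore07-601, Abcam76013 and Abcam133638. It ranked 101 of all regions of all 4 antibodies. This region was 4.75 times as strong as the next of the gene, which lay within Cog7, a gene for a Golgi tethering protein, and reached 7.34. The corresponding ratio was 4.35 for Slc26a9, 3.40 for Cftr, 1.43 for Ano1, 1.16 for Scnn1a, 1.03 for Scnn1g and 1.01 for Atp1b1. These ratios hold for 20 kb, and with summits up to 50 kb away that of Scnn1b was 1.28 and that of Atp1b1 2.61. In all 4 libraries the best region of Slc26a9 exceeded that of Scnn1b, and that of Scnn1b exceeded that of Ano1, with ranges that did not overlap.

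Ano1, the calcium-activated channel gene, followed. Its strongest region (chromosome 7, 144747580 to 144748745) had folds of 15.0, 25.8, 16.6 and 22.2 in the same order of libraries. The gene lies on the minus strand, and RefSeq annotates it up to 144752026, while the promoter window of the table stands further inside. The region lay inside the annotated gene, 9.36 kb before that start, and the annotated upper end itself carried a weaker region (144751568 to 144752240, mean fold 5.05). Another 3 regions of all 4 antibodies formed a group in the opposite part of the gene, at 144609461 to 144620602, with mean folds of 10.4, 14.0 and 6.66. A further pair lay at 144679947 to 144680477 (9.94) and 144688010 to 144688359 (7.62), and the gap between the latter and the strongest region, 59.7 kb, was the widest of the gene.

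Cftr carried its strongest region in mid-gene, 77.95 kb from the start (chromosome 6, 18248126 to 18248822), with folds of 13.2, 19.9, 11.6 and 19.2. A region of 3 antibodies without Abcam76013 followed at 79.3 kb (18249864 to 18250175, mean fold 5.07). The other region of all 4 antibodies in Cftr was weak (18220761 to 18221303, folds of 4.12, 5.29, 4.67 and 4.74), and the summits of its highest peaks spread over 216 bp, against a median of 46.5 bp for all 50 regions. Although Cftr had a low number of regions, its best region had a higher fold than that of Scnn1a in 3 of 4 libraries. By mean fold it was higher than that of 80.3% of all genes with a region of all 4 antibodies. Over the genome-wide background in place of the local one, the order turned, with 16.8 for Cftr and 21.6 for Scnn1a.

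**Figure D3:**
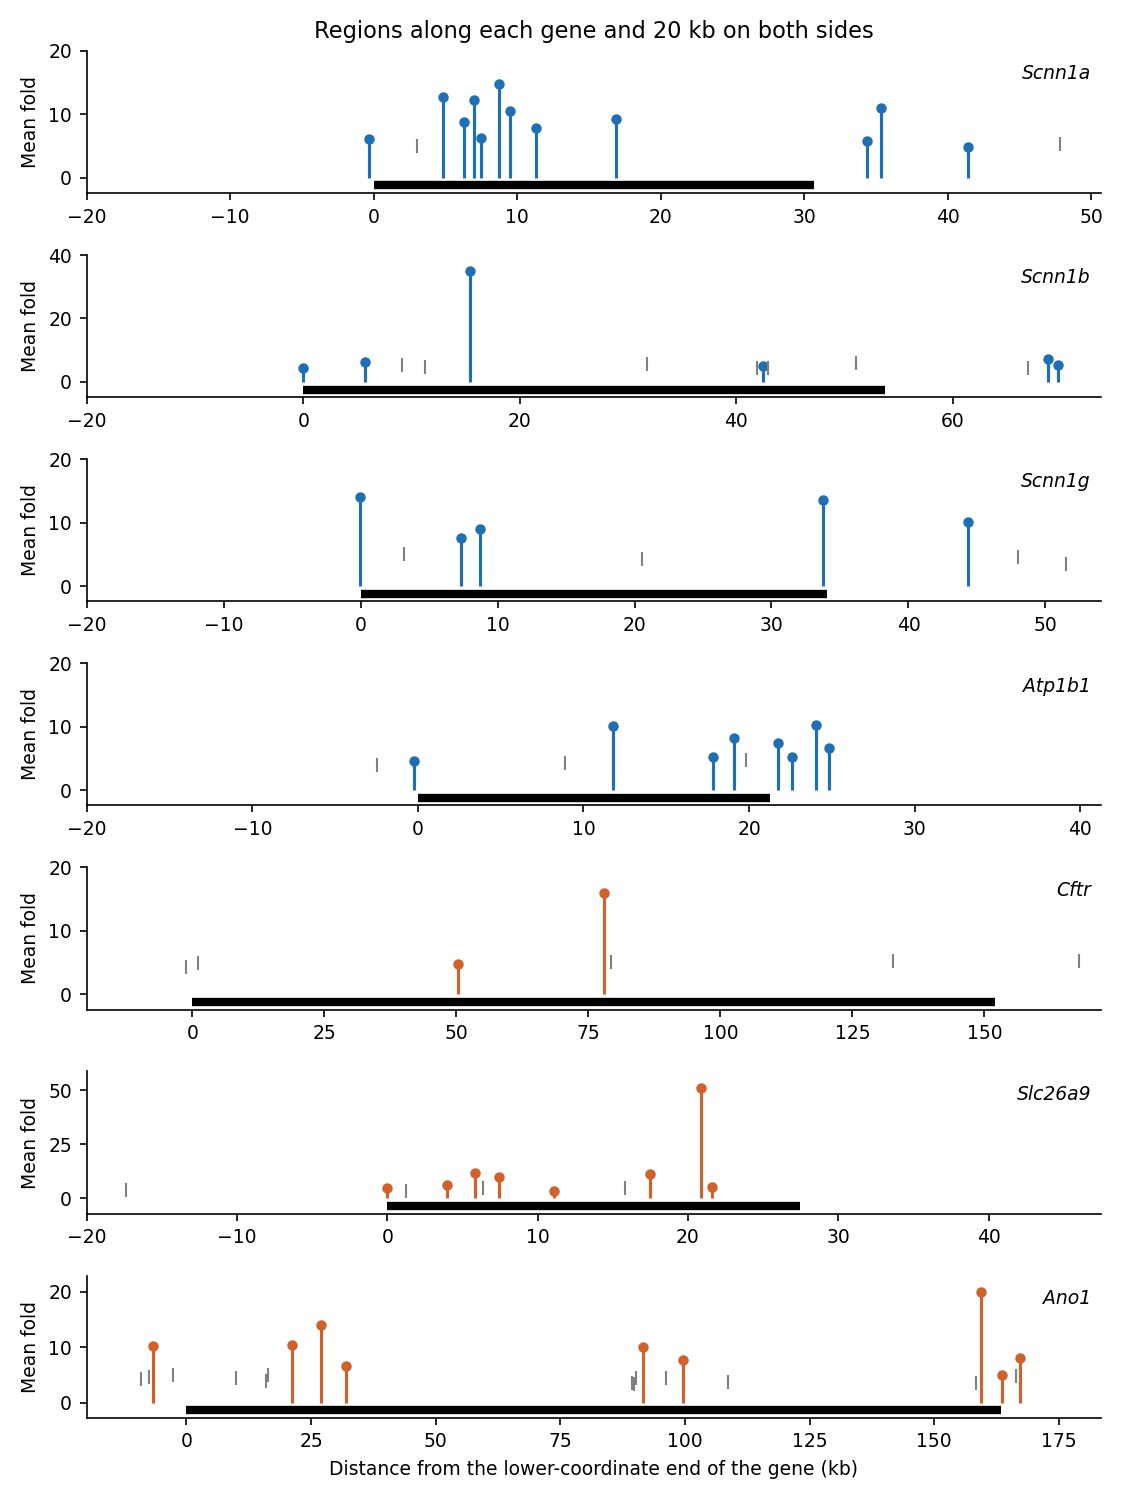
Regions along each gene and 20 kb on both sides, by distance from the lower-coordinate end of the gene in kb (horizontal axis) and mean fold enrichment (vertical axis). Stems mark regions of all 4 antibodies, grey ticks regions of fewer, and black bars the gene. Scnn1a shows a dense group inside the gene, and Scnn1b and Slc26a9 a single tall region.

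Scnn1a, the alpha subunit gene, had its regions crowded together. Within 4.62 kb inside the gene (chromosome 6, summits 125319125 to 125323740) lay 6 regions of all 4 antibodies. In 1 of them (125319930 to 125320706) the summits of the highest peaks spread over 460 bp, the widest of all 50 regions. All regions near Scnn1a numbered 10 with a reciprocal overlap of 50% and 12 with summits within 100 bp, and the count in this stretch was not repeated. A stretch of 5 kb with at least 5 such regions occurred near 0.217% of all genes, and 6 or more near 3 genes, namely Scnn1a, its neighbour Ltbr, whose window takes in the same stretch, and Sfi1. The mean folds of the 6 regions were 12.7, 8.76, 12.2, 6.27, 14.8 and 10.5 along the chromosome. The strongest by fold (125322597 to 125323326) had 11.1, 16.9, 14.4 and 16.6 in the order Abcam133737, Millipore07-601, Abcam76013 and Abcam133638. None of these regions was among the strongest 10% of the genome, which begin at a mean fold of 15.3, whereas 4 of the 7 genes, Scnn1b and the 3 chloride transport genes, had 1 such region each. Over all genes 14.0% had one.

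Some regions near Scnn1a were inside or nearer to other genes. Of its 12, 1 lay closest to Ltbr, the lymphotoxin beta receptor gene, and 3 to Tnfrsf1a, a tumour necrosis factor receptor gene, which left 8. The strongest of the 3 closest to Tnfrsf1a lay at 125349363 to 125349937 (mean fold 11.1). Scnn1b kept 4 of 6 regions by this count, Atp1b1 7 of 8 and Ano1 8 of 9, the last losing a region inside Fadd, a death receptor adaptor gene. The regions of Scnn1g, Cftr and Slc26a9 were all closest to these genes. With the nearest gene only, the density was 8.01 per 100 kb for sodium uptake genes and 3.89 for chloride transport genes.

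At 2 regions of Scnn1a and 1 each of Scnn1g and Slc26a9, the fold understated the pileup relative to the others. There the local background exceeded the genome-wide one by over 1.5 times. At 125323517 to 125324019 in Scnn1a the pileup was 86, 125, 87 and 95 tags, yet the folds were 8.93, 13.9, 9.05 and 10.2. There the local background of all 4 libraries equalled 2 input reads scaled up (within 0.02 reads), and at 125318973 to 125319655 it equalled 1.58 to 1.78. Taken over the genome-wide background in place of the local one, the best region of Scnn1a would stand at 21.6, at 125318973, and that of Scnn1g at 19.8, at 121778552 to 121779407. Scnn1a would then pass Ano1 (19.9) and Scnn1g would stand just under it, so the order of the members below Scnn1b depends on this choice.

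**Figure D4:**
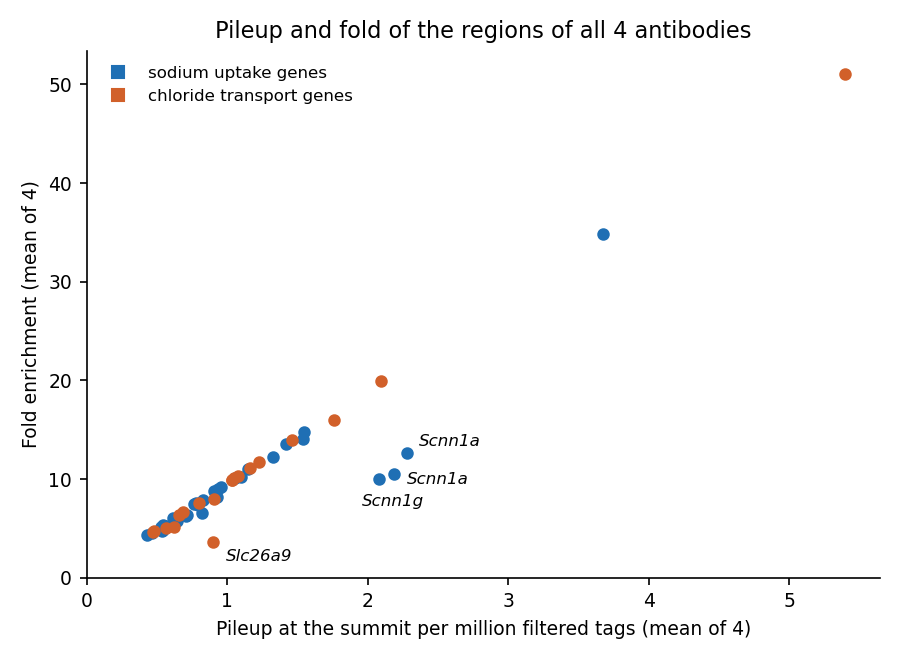
Mean pileup at the summit per 1000000 filtered tags (horizontal axis) and mean fold enrichment (vertical axis) of the 50 regions of all 4 antibodies, by group of genes. Most regions fall on a line, and the 4 labelled regions, whose local background was over 1.5 times the genome-wide one, lie below it.

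Scnn1g, the gamma subunit gene, had regions of similar strength at both ends. Beside that at its start, a region near its far end (121767937 to 121768370) had folds of 10.9, 17.6, 9.95 and 15.95. In the same order of libraries, the start had 12.6, 17.6, 10.1 and 15.95. The pileups were 60, 82, 53 and 82 tags at the start and 52, 82, 48 and 73 at the far end. With 1 library per antibody, a difference between both ends was not tested. The means were 14.0 at the start and 13.6 at the far end. Their spreads of 3.37 and 3.73 (SD over the 4 libraries) include the differences between antibodies. A further region lay 10.3 kb beyond the gene (121778552 to 121779407) at a mean fold of 10.0. Scnn1g and Scnn1b lie side by side on the same strand, and their windows do not overlap. Outside both windows, 27.9 kb before Scnn1b and closer to it than to any other gene, a region of all 4 antibodies (121836404 to 121837553) had a mean fold of 27.1, above every region of Scnn1g.

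Around Atp1b1, regions of all 4 antibodies lay on both sides of the start, with 4 of them within 4.72 kb of each other. The strongest lay 2.82 kb before the start (chromosome 1, 164460874 to 164461360) with folds of 7.64, 10.5, 9.34 and 13.4, and another 9.48 kb inside the gene (164448715 to 164449202) with 8.44, 12.9, 8.12 and 11.0. The libraries overlapped widely between both. No region of Atp1b1 exceeded a mean fold of 10.2, which was the lowest maximum of the 7 genes, and above that of 54.1% of the genes with a region of all 4 antibodies. In 4 of 4 libraries the best region of Scnn1g exceeded that of Atp1b1, although their ranges overlapped.

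At the limit of 20 kb, the outermost regions inside the windows were weak, from 16.1 kb outside Scnn1b (mean fold 5.35) to 17.4 kb outside Scnn1g (3.46, 1 antibody). Just beyond it lay a peak of 1 antibody 20.1 kb from Atp1b1 (4.17) and a region of all 4 antibodies 22.5 kb from Scnn1b (21.1, 121940978 to 121942077). At 23.3 kb from Atp1b1, inside Nme7, the region of mean fold 26.6 had values of 20.8 to 34.5 in the 4 libraries. No region of all 4 antibodies lay between 20 and 50 kb from Cftr or Ano1.

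**Figure D5:**
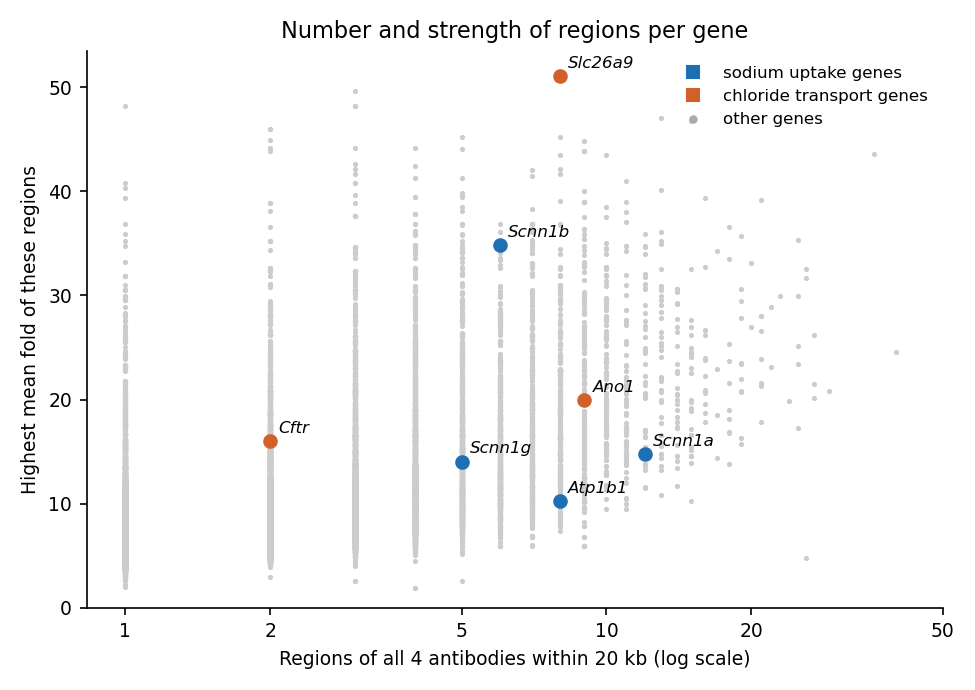
Number of regions of all 4 antibodies within 20 kb (horizontal axis, log scale) and highest mean fold among them (vertical axis) for all genes with such a region, with the 7 members labelled. Slc26a9 lies at the top at 51.0, Scnn1a to the right with 12 regions at 14.8, and Cftr to the left with 2 regions at 16.0.

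The antibodies differed near these genes as they did across the genome. Millipore07-601 or Abcam133638 gave the highest fold in 47 of the 50 regions of all 4 antibodies (94.0%), against 95.7% of all such regions. The fold relative to the mean of the 4 libraries had medians of 0.84 with Abcam133737, 1.20 with Millipore07-601, 0.84 with Abcam76013 and 1.13 with Abcam133638, against 0.84, 1.18, 0.84 and 1.13 across the genome. The 3 exceptions were 125348501 to 125348806 by Tnfrsf1a and 121933670 to 121934332 in Cog7, highest with Abcam76013, and the upper end of Ano1, highest with Abcam133737. In 47 of the 50 regions, the summits of the highest peak of each library fell within 100 bp of each other, while further peaks of a region could lie apart. Of 14 regions with 2 antibodies, 9 combined Millipore07-601 and Abcam133638. Of 7 regions with 3 antibodies, 5 lacked Abcam76013 and 2 Abcam133737. Regions with fewer than 4 antibodies had mean folds of 3.29 to 6.03 over the libraries with a peak. Regions of all 4 antibodies began as low, at 3.65, and reached 51.0. The number of lists with a peak depends on strength, so this is a description.

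The genes most like the best-bound member of each group were sought by the summed pileup of all peaks within 20 kb, as log2 of the value per 1000000 filtered tags plus 1 over the 4 libraries. For Scnn1b, with sums of 6.10 to 10.4, they were Myo5a (distance 0.07 on the log2 scale), Ift81 (0.07) and Max (0.08). For Slc26a9, with 9.70 to 16.1, they included Kifc2 (0.13) and Ano6 (0.11), a relative of Ano1 that scrambles membrane lipids. The best region of Slc26a9 had the highest mean fold of the genome, so those of Kifc2 and Ano6 were bound to be lower, at 21.5 and 13.2. Their regions of all 4 antibodies numbered 9 and 13, against 8 for Slc26a9. Near Myo5a, Ift81 and Max the best regions had mean folds of 33.2, 14.2 and 17.1, against 34.8 for Scnn1b. Their regions of all 4 antibodies numbered 5, 8 and 7, against 6 for Scnn1b.

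Other genes of ion and water transport were listed by role. Of 102 genes found in the annotation, 79 (77.5%) had a region of all 4 antibodies within 20 kb, against the 64.8% of all genes, 21 had at least 5 (12.6% of all genes) and 25 had a region among the strongest 10% (14.0% of all genes). Their best regions had a median mean fold of 11.2. Of 12 further subunits and regulators of the sodium pump, 9 (75.0%) had a region. Fxyd4, a gene of the FXYD family of pump regulators, had 3, and its best (mean fold 11.4) was nearer Hnrnpf.

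All 20 genes listed with the sodium channel regulators had a region (64.8% of all genes). The list includes Asic1, Asic2 and Asic3, which encode channels themselves. Of the 20, 7 had at least 5 (12.6% of all genes) and 9 had one among the strongest 10% (14.0% of all genes). Nr3c1, the glucocorticoid receptor gene, led with a mean fold of 32.6 at 16.5 kb outside the gene, followed by Stk39 (31.8, inside the gene), which encodes a kinase that acts on chloride cotransporters, and Nedd4l (29.97, inside the gene), which encodes the ubiquitin ligase that removes ENaC from the membrane. Nedd4l, a long gene, held 25 regions of all 4 antibodies.

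Of 44 other chloride and bicarbonate transporter genes, 32 (72.7%) had a region, against 64.8% of all genes. A region among the strongest 10% was found for 7 of the 44, against 14.0% of all genes. The list was led by Slc12a2, the sodium-potassium-chloride cotransporter gene (33.6, at 16.95 kb outside the gene). Best2 (29.4, inside Hook2) and Slc4a1 (28.98, at 9.41 kb outside the gene) followed. Among relatives of the members, 7 of 10 other Slc26 genes and 5 of 9 other Ano genes had a region of all 4 antibodies. These shares lie on both sides of the 64.8% of all genes. Of 16 potassium channel genes 11 (68.8%) had a region, a share near the 64.8% of all genes, led by Kcnk6 (27.9, inside Yif1b), Kcne2 (22.6) and Kcnj15 (19.2). Of 10 water channel genes 7 (70.0%) had one, again near that share, and the neighbours Aqp2, Aqp5 and Aqp6 shared the best of them, 0.328 kb from Aqp5 (chromosome 15, 99594795 to 99595666, 24.1), the water channel gene of alveolar type 1 cells.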

How the data were processed

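ChIP-seq peak tables of 4 antibody libraries were used. MACS 2.1.2 was run by the authors, per the file headers, separately by antibody against a single input, at a q cutoff of 0.05, without duplicate tags, and with the input scaled to the depth of the larger library. Per the submitters' processing notes, the build was mm10 and the tools included Bowtie, Trimmomatic and SAMtools, whose versions are not given in the sources used here. Per the file headers, the deposited pileup is a signal in tags at the summit, the deposited fold enrichment is a ratio of pileup to local background, and the deposited p-value and q-value are given as −log10.

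From these, peaks were selected by summit, merged and counted with Python 3.11.15, pandas 2.3.3 and numpy 2.4.6, and intervals came from scipy 1.17.1. A region's fold per library is that of its highest peak. The local background was recovered as pileup plus 1 over fold, minus 1, and the genome-wide one from filtered tags, fragment length and the effective genome size of 1.87 Gb. The merging and counting were tested on simulated data. Members, lists and measures were chosen with earlier results of these data known. Named genes were the members, the 3 best of each list, genes that hold or neighbour a member's region, and the 3 genes of most like profile, some of which are not reported here. The tally of relatives was chosen after their values were seen. Among listed genes, 1 was not matched. The gene table gives no exons, so the split into exons and introns was not run, and sequences under regions other than promoters were not used here. Alternatives are given at the end.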

Additional observations from a re-analysis of the deposited data

How the results depend on the processing

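Each of the 7 genes kept a region of all antibodies that the setting required, under all alternatives run. Leaving out 1 antibody, or asking for at least 3, loosened the rule, so keeping a region there follows from the main result. Of 299 recomputed values, 274 stayed within their limits. Limits were 1.5 times the value for counts, densities and differences, and the SD over the 4 libraries, or over the genes of a group for medians, for folds. For differences on another scale the limit was the sign alone, and for places no change. Many values could hardly leave these limits, so the tally is no test of robustness. Filters that drop weaker peaks leave the strongest region of most genes as it was. The limit for medians was wide, and the chloride transport median of 33.5 without Ano1 or 35.5 without Cftr stayed within it, against 19.9. With the 10000 strongest peaks of each list, regions of all 4 antibodies numbered 7 near sodium uptake genes and 7 near chloride transport genes, with densities of 2.34 and 1.51 per 100 kb and a ratio of 1.55, since fewer peaks enter. Inside the genes alone, sodium uptake genes held 17. With 50 kb, Atp1b1 rose to 26.6 and the difference of medians became -0.77. Over the genome-wide background, an alternative chosen after seeing the data like the omission of single genes, Scnn1a stood at 21.6, Scnn1g at 19.8 and the difference at -0.78. By pileup per 1000000 filtered tags the difference was -0.084, also chosen after seeing the data. Without Cftr the density of chloride transport genes was 6.27, the ratio 1.65 and the difference of medians 21.1. The difference was 19.1 without Ano1 and 3.55 without Slc26a9. Leaving out 1 antibody at a time gave 31 to 33 regions near sodium uptake genes, 19 to 23 near chloride transport genes, ratios of 2.15 to 2.68 and differences of 4.51 to 6.30. By pileup per 1000000 filtered tags, Slc26a9, Scnn1b and Atp1b1 kept their places (1, 2 and 7), Scnn1a came to place 3, Ano1 to 4, Scnn1g to 5 and Cftr to 6. No paired analysis was possible because each antibody has 1 library and no test was made. The local background equalled the genome-wide one at 60.2 to 63.6% of the peaks of the 4 lists, which is less than 1 input read scaled up, so the depth of the input limits the folds.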
